A study of Danio rerio with 6 samples.

Results

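The p53 target genes described here are mdm2, cdkn1a, ccng1, gadd45aa, gadd45ba, baxa, bbc3, casp8 and rps27l, taken from a zebrafish gene table by their gene symbols. Of these 9 symbols, 8 matched a row among the 24826 genes of the table, and all 8 passed the filter on low counts. rps27l, whose symbol no row carried, is not analysed here. RNA was measured in pools of 80 wild-type zebrafish larvae, 3 pools exposed to the tire wear particle leachate TWP 700 and 3 pools kept in the surfactant control medium with 0.001% bovine serum albumin. The labels say nothing of albumin for the leachate pools. Both groups were treated from 4 to 168 h after fertilization, 200 eggs to a dish, with a move to clean dishes at 72 h, under a cycle of 14 h light and 10 h dark. The sample titles give 700 as a treadwear grade and the series' design text as a concentration, so it serves here as a name. The time of day at which larvae were collected is not recorded. The pools are described as biological replicates and are named leachate 1 to 3 and control 1 to 3.

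The transcription factor p53 is held low in unstressed cells because Mdm2, a ubiquitin ligase, marks it for degradation. DNA damage and other stresses release it from that control, mostly through changes to the protein rather than to its mRNA, and it then switches on genes that stop the cell cycle, repair DNA or start cell death. mdm2 is itself such a target, which closes a negative feedback loop. In zebrafish, as in mammals, raised cdkn1a and mdm2 mRNA is widely used as a readout of active p53.

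The gene counts summed to between 37460304 and 42773836 per leachate pool and between 37030725 and 48431952 per control pool. Control 2 and leachate 1 stood apart from the other pools of their groups on the second principal component of all genes, which held 20.4% of the variance, so results are also given without both. That fit was added after seeing the data and called more genes in both directions. Its adjusted p-values are therefore no separate support for a call. Levels are given as CPM, read counts divided by the TMM-scaled size of each library, and log2 values are fold changes of leachate over control. Each adjusted p comes from the quasi-likelihood test of edgeR, with Benjamini-Hochberg adjustment over all 23761 genes tested, and a gene is called below 0.05. All 10 sets of tissue markers, from muscle, liver, gut, exocrine pancreas, lens, retina, neurons, red cells, white cells and skin, were detected in each pool, with 52 of 55 marker symbols matched. Every deposited count was 1 or more, so detection of a matched marker was fixed in advance and does not measure tissue content.

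The 8 genes did not move as a group. cdkn1a was higher in the leachate pools by 3.24-fold, gadd45ba and bbc3 were lower by 1.49-fold and 1.5-fold, and the other 5, mdm2 among them, did not pass the test. That is 1 of 8 genes called higher, where 7.87% of all genes tested were, and 2 of 8 called lower, where 7.29% of all genes were. In CPM, the groups did not overlap in 4 of the 8 genes, mdm2, cdkn1a, gadd45ba and bbc3, where this held for 35.1% of all genes. The median log2 fold change of the 8 was 0.11, and that of all genes tested was -0.0026. Scaled by library totals, the median gene lay at 0.13 and 76.4% of all calls were higher, against 51.9%, so directions are relative to the median gene.

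**Figure D1:**
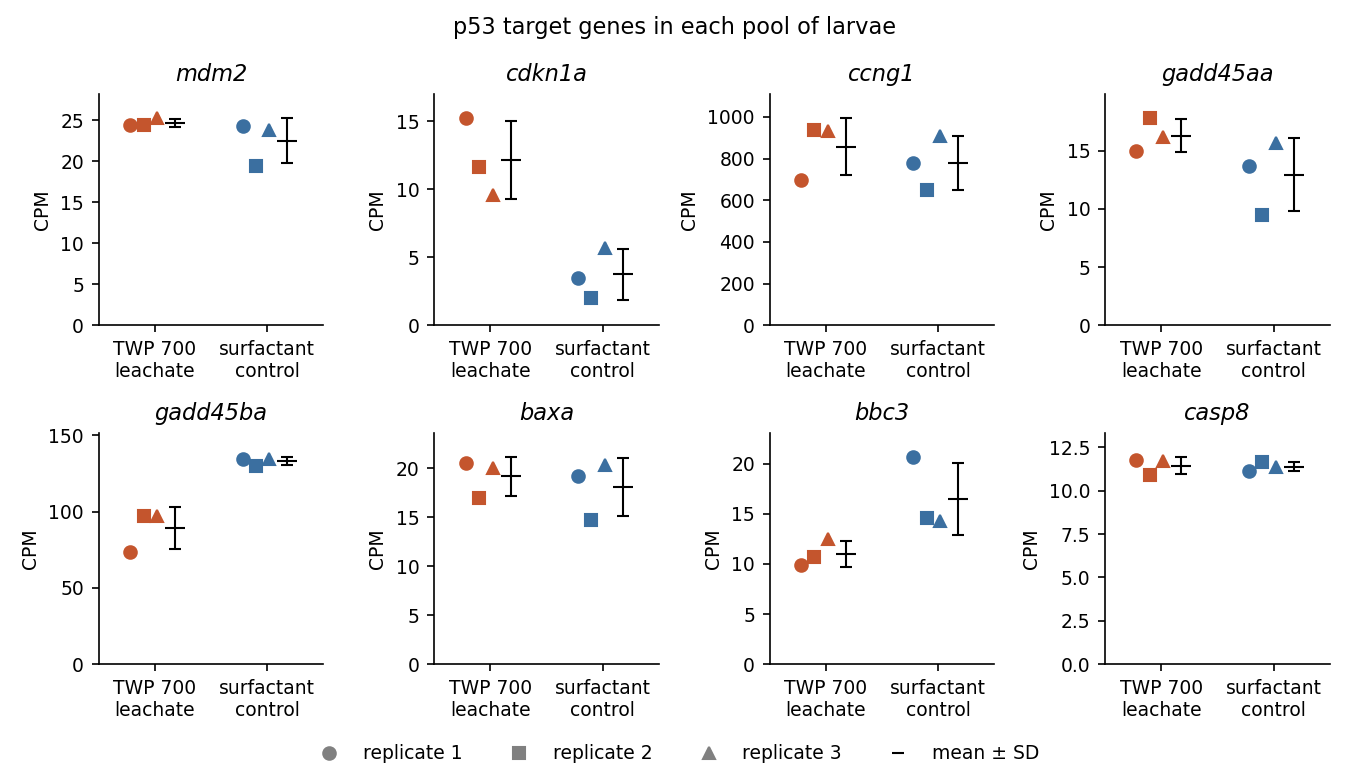
CPM of the 8 p53 target genes in each pool of 80 larvae (vertical axes, from 0), leachate pools in orange and control pools in blue, with marker shapes for replicate numbers and black bars for the mean ± SD of 3 pools. cdkn1a lies between 9.54 and 15.2 CPM in the leachate pools, above all 3 control pools, gadd45ba and bbc3 lie below their controls, and casp8 lies between 10.9 and 11.8 CPM in all 6 pools.

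The feedback arm of the pathway showed no change past the test. mdm2 was at 24.4, 24.4 and 25.2 CPM in leachate 1 to 3, against 24.3, 19.4 and 23.8 CPM in control 1 to 3. The groups did not overlap, but by the width between 24.4 CPM in leachate 1 and 24.3 CPM in control 1, and control 2 alone was clearly lower. The log2 fold change was 0.13 ± 0.12 (SE; adjusted p = 0.50), and its 95% interval ran from 0.918-fold to 1.31-fold. Leaving out control 2 gave a log2 value of 0.035, and leaving out leachate 1 as well gave 0.048. The value was 0.19 without control 1 (adjusted p = 0.44) and 0.27 with library totals (0.20). ccng1 encodes cyclin G1, which in mammals brings a phosphatase to Mdm2 and so acts on the same loop. It was at 698, 939 and 931 CPM in leachate 1 to 3, against 777, 647 and 909 CPM in control 1 to 3. These ranges overlapped (log2 0.14 ± 0.18, adjusted p = 0.66), with a 95% interval from 0.837-fold to 1.45-fold. The log2 value was 0.022 without control 2 and 0.15 with leachate 1 left out too. Without leachate 1 alone it was 0.27 (adjusted p = 0.33), and with library totals it was also 0.27 (0.21).

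mdm4, whose product binds and restrains p53 beside Mdm2, averaged 38.2 ± 1.43 CPM in leachate pools and 40.2 ± 2.33 CPM in control pools (SD, n = 3 each; log2 -0.075 ± 0.10, adjusted p = 0.67). Its direction turned when libraries were scaled by their totals, to a log2 value of 0.060.

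cdkn1a encodes p21, an inhibitor of the cyclin-dependent kinases and the best known arrest gene under p53. It was at 15.2, 11.6 and 9.54 CPM in leachate 1 to 3, from 675, 507 and 363 reads. In control 1 to 3 it was at 3.49, 2.01 and 5.67 CPM, from 168, 74 and 234 reads. Each leachate pool was above each control pool, and both groups were spread, with an SD of 23.6% of the mean in the leachate pools and 49.4% in the control pools. The log2 fold change was 1.70 ± 0.35 (adjusted p = 0.0181, higher in 3 of 3 leachate pools), with a 95% interval from 1.84-fold to 5.72-fold, and it ranked 127 from the top among the rises of 23761 genes. The extremes were the pools that stood apart: leachate 1 was the highest and control 2 the lowest. Without both, the log2 value was 1.22 (adjusted p = 4.51e-04), in the fit added after seeing the data, which leaves out these extremes. The call was lost without control 1 (adjusted p = 0.0805), without leachate 1 (0.0518) and without leachate 2 (0.0542), with log2 values between 1.41 and 2.12 over the 6 fits with 1 pool left out.

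Part of a list of proliferation markers was higher in the same pools as cdkn1a. Of 20 markers, 9 rose in edgeR, where 7.87% of all genes did, 11 did not pass and 0 fell. DESeq2 called 13 higher and limma-voom 10, 15 were higher at an unadjusted p under 0.05, and 0 were lower by any of these. All 20 had a log2 fold change above 0. Their summed level was between 259 and 373 CPM in the leachate pools and between 125 and 173 CPM in the control pools, and their median log2 fold change was 1.02. The number that rose was 16 without control 2, 17 with leachate 1 left out as well, and 8 without control 1, leachate 1 or leachate 2. Calls over all genes moved too, from 1871 higher to 2063 without control 2, 2648 with leachate 1 left out as well, and 970 without control 1. These markers, like the other lists, were chosen with earlier results of these data known. The part of these genes, or of the cells they mark, in the cdkn1a result was not tested. In pools of whole larvae, more or fewer cells of a type and more or less RNA per cell cannot be told apart.

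The GADD45 proteins are small stress-induced factors that bind PCNA, p21 and kinases of the stress pathways. gadd45ba was lower in the leachate pools, at 73.6, 97 and 97.2 CPM in leachate 1 to 3, against 135, 130 and 134 CPM in control 1 to 3. The groups were well apart, and the control pools were close together, with an SD of 1.98% of their mean. The log2 fold change was -0.58 ± 0.13 (adjusted p = 0.0144, lower in 3 of 3 leachate pools). The fit without control 1 gave an adjusted p of 0.0628 and so no call. With control 2 and leachate 1 both left out, the log2 value was -0.47 (adjusted p = 0.00148). gadd45aa lay the other way, at 15, 17.8 and 16.2 CPM in leachate 1 to 3, against 13.7, 9.47 and 15.6 CPM in control 1 to 3. The groups overlapped and the test was not passed (log2 0.33 ± 0.17, adjusted p = 0.22). Its 95% interval ran from 0.97-fold to 1.63-fold, and its log2 value was 0.15 without control 2 and 0.22 with leachate 1 left out too. The value was 0.49 without control 3 (adjusted p = 0.0962) and 0.47 with library totals (0.067).

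Of the cell death genes, bbc3 encodes Puma, a BH3-only protein that releases Bax from its inhibitors. It was at 9.93, 10.7 and 12.5 CPM in leachate 1 to 3, against 20.6, 14.5 and 14.3 CPM in control 1 to 3. The groups did not overlap, and control 1 was well above the other controls. bbc3 fell by 0.58 ± 0.16 on the log2 scale (adjusted p = 0.0346, lower in 3 of 3 leachate pools). Without control 1 the log2 value was -0.39 (adjusted p = 0.154), and the call was also lost without leachate 1 (0.102), leachate 2 (0.118) or leachate 3 (0.0521) and with library totals (0.106). Without control 2 and leachate 1 together it was -0.59 (adjusted p = 0.0178).

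baxa encodes the Bax protein that opens the outer mitochondrial membrane. It was at 20.5, 16.9 and 20 CPM in leachate 1 to 3, against 19.2, 14.7 and 20.3 CPM in control 1 to 3, and the ranges overlapped (log2 0.082 ± 0.14, adjusted p = 0.75). Its 95% interval ran from 0.852-fold to 1.32-fold, and its log2 value turned to -0.047 without control 2 and to -0.096 with leachate 1 left out too. With library totals the value was 0.22 (adjusted p = 0.36). casp8, the initiator caspase of the death receptors, was at 11.8, 10.9 and 11.7 CPM in leachate 1 to 3, against 11.1, 11.7 and 11.4 CPM in control 1 to 3. The pools of both groups held nearly the same level (log2 0.0079 ± 0.12, adjusted p = 0.97), and the 95% interval ran from 0.843-fold to 1.2-fold. With control 2 and leachate 1 both left out the log2 value was 0.0088, and with library totals it was 0.14 (adjusted p = 0.55). The SD of casp8 was 4.2% of the mean in leachate pools and 2.3% in control pools.

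**Figure D2:**
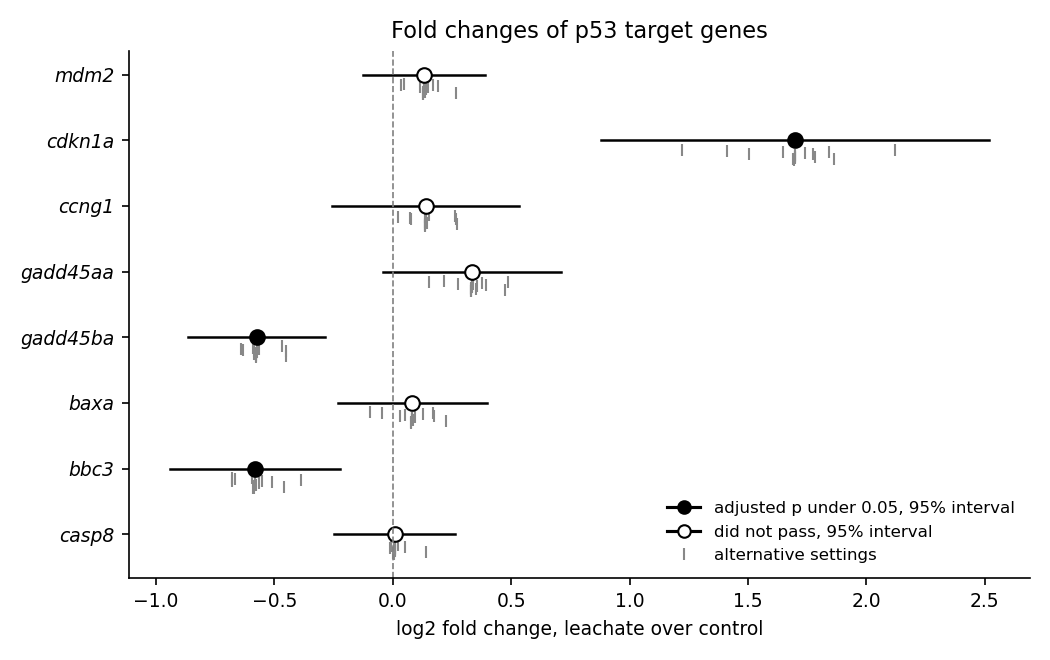
Log2 fold change of leachate over control for the 8 p53 target genes (horizontal axis), with 95% intervals, filled where the adjusted p was under 0.05. Grey ticks under each gene are the values under alternative settings, which stay above 0 for cdkn1a (1.22 to 2.12) and below 0 for gadd45ba (-0.64 to -0.45) and bbc3 (-0.68 to -0.39).

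Tissue markers differed between the groups in both directions. Over the 10 sets together, 11 of 52 markers rose and 8 fell, beside 7.87% and 7.29% of all genes. The summed level of 5 lens markers was between 1222 and 1766 CPM in leachate pools and between 2273 and 2992 CPM in control pools, and 4 of them fell. That of 5 skin markers was between 10628 and 16459 CPM in leachate pools and between 18584 and 22386 CPM in control pools, and in edgeR cyt1 alone passed as lower and 4 did not pass. All 5 skin markers had a log2 fold change below 0, with a median of -0.44. At an unadjusted p under 0.05, 3 were lower, and DESeq2 called 2 lower. In the retina set 2 of 5 rose and 2 fell, and the sum was between 1632 and 1758 CPM in leachate pools and between 1873 and 2202 CPM in control pools. The lens, skin and retina sums thus lay lower in every leachate pool, and the neuron sum lay higher, by the width between 472 CPM in a leachate pool and 471 CPM in a control pool. Of 6 neuron markers 3 rose and 3 did not pass, with sums between 472 and 551 CPM in leachate pools and between 415 and 471 CPM in control pools. The sums of the other 6 sets overlapped between the groups. Among these, 2 of 4 red cell markers rose, with sums between 441 and 498 CPM in leachate pools and between 412 and 483 CPM in control pools. In muscle 2 of 7 rose, and the sum was between 25157 and 33481 CPM in leachate pools and between 29439 and 39141 CPM in control pools. In liver 1 of 6 rose, and in gut 1 of 5 rose and 1 fell. By DESeq2, 2 rose and 1 fell in liver, and 2 rose and 1 fell in gut. The liver sum was between 2629 and 3124 CPM in leachate pools and between 2143 and 2771 CPM in control pools, and the gut sum between 1321 and 1603 CPM in leachate pools and between 818 and 1453 CPM in control pools. Of 3 exocrine pancreas markers 0 were called in edgeR or limma-voom, while 2 were lower in DESeq2 and at an unadjusted p under 0.05, with sums between 2836 and 3117 CPM in leachate pools and between 2818 and 7253 CPM in control pools. The summed level of 6 white cell markers was between 104 and 123 CPM in leachate pools and between 101 and 122 CPM in control pools, and 0 of them passed in edgeR, in DESeq2, in limma-voom or at an unadjusted p under 0.05. The part of these markers in the cdkn1a, gadd45ba and bbc3 results was not tested. cyt1 was named after its value was seen.

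The levels of the 8 genes per transcript length (TPM) spanned a wide range. ccng1 was by far the most abundant, at 568 ± 35.3 TPM in leachate pools and 460 ± 53.8 TPM in control pools (SD, n = 3 each), above 98.96% of all genes in the controls. gadd45ba followed at 88.9 ± 4.77 TPM in leachate pools and 119 ± 11.3 TPM in control pools. mdm2, gadd45aa and baxa lay together, between 10.6 and 17.8 TPM in the leachate pools and between 9.01 and 14.9 TPM in the control pools, and neighbours among them overlapped. casp8 was at 7.34 ± 1.02 TPM in leachate pools and 6.45 ± 0.611 TPM in control pools. cdkn1a was at 7.37 ± 2.55 TPM in leachate pools and 1.92 ± 0.807 TPM in control pools, and bbc3 at 3.61 ± 0.3 TPM in leachate pools and 4.88 ± 1.42 TPM in control pools. In the control pools cdkn1a was thus the lowest of the 8 and did not overlap with bbc3. In the leachate pools it overlapped with casp8, and bbc3 was the lowest. Whether the groups overlapped depended on the measure. In TPM, the groups did not overlap for ccng1 and gadd45aa, unlike in CPM, and neither gene passed the test. TPM values carry no TMM scaling, and the share of all genes that did not overlap in TPM was not counted. casp8, at a mean of 11.4 CPM in both groups, averaged higher in the leachate pools in TPM, with ranges that overlapped. For bbc3 they overlapped in TPM, with leachate 3 at 3.86 and control 3 at 3.77. For mdm2 they also overlapped in TPM, with leachate 2 at 14.5 and control 1 at 14.9.

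**Figure D3:**
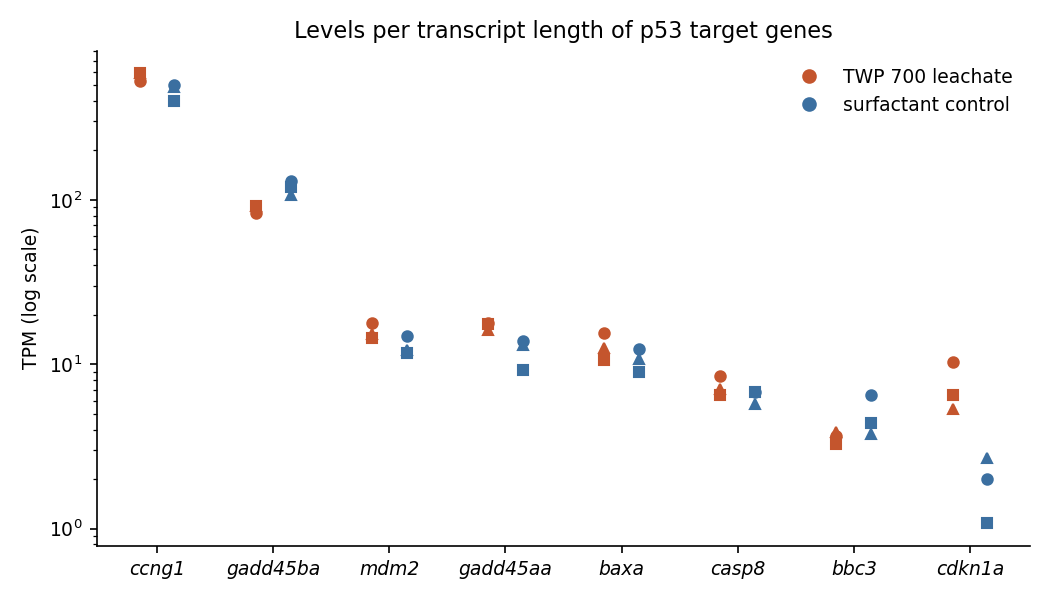
TPM of the 8 genes in each pool (log scale), leachate pools in orange and control pools in blue, in order of the control mean from ccng1 to cdkn1a. cdkn1a shows the widest gap between groups, at 5.36 to 10.2 TPM in leachate pools and 1.08 to 2.69 TPM in control pools.

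Zebrafish carry several relatives of most of these genes. Beside the calls in each family below, 7.87% of all genes tested were called higher and 7.29% lower. A single call in a family this small is therefore no result about the family. Of 5 genes of the CDKN1 inhibitors, cdkn1a rose and the other 4 did not pass, with cdkn1ba at 13.6 ± 0.442 CPM in leachate pools and 17.1 ± 0.413 CPM in control pools (log2 -0.33 ± 0.11, adjusted p = 0.0652). Of 6 GADD45 genes, gadd45ba fell and 5 did not pass. Their log2 values ran from -0.58 to 0.33. gadd45ab varied widely, at 40.2, 59.9 and 47.2 CPM in leachate 1 to 3, against 88.1, 29.5 and 95.1 CPM in control 1 to 3. Of 8 BH3-only genes, bbc3 and bada fell and 6 did not pass. The log2 values of the 8 ran from -0.64 to 0.19. Among the 6, bida (log2 -0.41 ± 0.13, adjusted p = 0.0509) and bcl2l11 (log2 -0.64 ± 0.27, adjusted p = 0.13) were lower in each leachate pool than in each control pool. The groups overlapped for pmaip1, another p53 target that encodes Noxa. It was at 17.4 ± 3.75 CPM in leachate pools and 21 ± 2.11 CPM in control pools (log2 -0.27 ± 0.15, adjusted p = 0.27). bada (log2 -0.41 ± 0.11, adjusted p = 0.0267) lost its call without each pool other than control 2, with an adjusted p of up to 0.113, and under scaling by library totals (0.154). ccng2, the other cyclin G gene, fell, at 64.6 ± 7.82 CPM in leachate pools and 96.8 ± 19.5 CPM in control pools (log2 -0.58 ± 0.16, adjusted p = 0.0297). The ccng2 call was lost without control 1 (0.114), control 3 (0.0858), leachate 2 (0.124) or leachate 3 (0.125), and under scaling by library totals (log2 -0.44, 0.092). bada, bcl2l11, bida, cdkn1ba, gadd45ab and pmaip1 were chosen after their values were seen. That a gene passed and its paralog did not is no test of a difference between them.

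**Figure D4:**
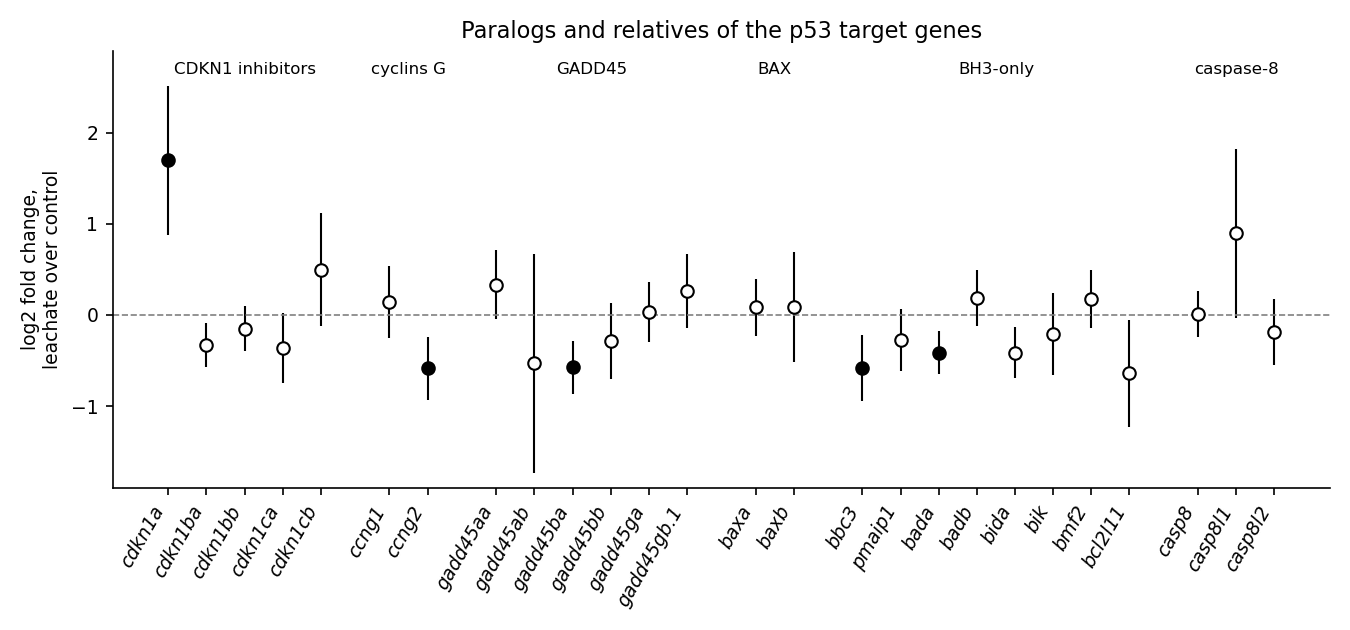
Log2 fold change of leachate over control with 95% intervals (vertical axis) for the p53 target genes other than mdm2 and their relatives, by family. Points are filled where the adjusted p was under 0.05, and the MDM and p53 families are not drawn. cdkn1a, at 1.70, stands above the other 4 CDKN1 inhibitor genes, which lie between -0.36 and 0.50.

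The rest of the pathway was read from 6 lists, with 159 genes tested in all. Of these, 16 rose and 17 fell, beside the 7.87% and 7.29% of all genes given above, and their median log2 fold change was 0.022. These shares are of the main fit (1871 genes higher, 1731 lower), and calls over all genes moved between fits too. They were 970 higher and 908 lower without control 1, and 2648 and 2606 with control 2 and leachate 1 both left out. Under library totals 2809 were higher and 868 lower. List counts under such fits are not shifts of the lists alone. In the list of p53 relatives and regulators, 2 of 33 rose and 3 fell. chek1, a checkpoint kinase gene, was at 3 ± 1.33 CPM in leachate pools and 1.03 ± 0.33 CPM in control pools (log2 1.55 ± 0.36, adjusted p = 0.016). It was not called without control 1 (0.0743), leachate 1 (0.0534) or leachate 2 (0.0514). The paralogs ing5a and ing5b, of a chromatin reader family, moved in opposite directions. ing5b was at 2.3 ± 0.425 CPM in leachate pools and 0.825 ± 0.203 CPM in control pools (log2 1.49 ± 0.28, adjusted p = 0.00478), and ing5a at 17.8 ± 2.03 CPM in leachate pools and 28.3 ± 2.26 CPM in control pools (log2 -0.67 ± 0.12, adjusted p = 0.00426). sirt1, a deacetylase gene whose product acts on p53 in mammals, was at 35.5 ± 2.75 CPM in leachate pools and 54 ± 4.07 CPM in control pools (log2 -0.61 ± 0.11, adjusted p = 0.00445). tp53bp2a, which encodes a p53-binding protein, fell too, at 49.2 ± 2.57 CPM in leachate pools and 76.3 ± 5.73 CPM in control pools (log2 -0.63 ± 0.11, adjusted p = 0.00346). Left-out pools changed only the number that rose, which was 1 without control 1, leachate 1 or leachate 2.

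In the list of other arrest genes, 1 of 21 rose and 2 fell, where 7.87% of all genes rose and 7.29% fell. The gene that rose was e2f7, a repressor of replication genes, at 3.24 ± 1.03 CPM in leachate pools and 1.35 ± 0.519 CPM in control pools (log2 1.28 ± 0.32, adjusted p = 0.021). It lost its call without control 1 (0.0881), control 3 (0.063), leachate 1 (0.0752) or leachate 2 (0.0628), so that 0 rose. The genes that fell were ccng2 and the antiproliferative gene btg1, at 100.2 ± 8.41 CPM in leachate pools and 155 ± 3.55 CPM in control pools (log2 -0.63 ± 0.12, adjusted p = 0.00479). The number that fell was 1 without control 1, control 3, leachate 2 or leachate 3, 4 without control 2, and 6 with leachate 1 left out as well. Under library totals 2 rose and 1 fell.

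Among the 6 lists, the DNA repair list was the one in which 0 genes fell. Of all genes 7.29% fell, and 0 of 16 lies near that share. Of 16 measured, 7 rose in edgeR, in DESeq2 and in limma-voom, where 7.87% of all genes rose in edgeR. The median log2 fold change of the list was 0.43. By edgeR 0 fell and 1 was lower at an unadjusted p under 0.05, and 0 fell by the other tools. pcna, the sliding clamp of DNA polymerases, was at 104 ± 14.7 CPM in leachate pools and 42.7 ± 5.85 CPM in control pools (log2 1.28 ± 0.14, adjusted p = 2.50e-04). rrm2, a ribonucleotide reductase gene of dividing cells, was at 21.1 ± 4.42 CPM in leachate pools and 7.28 ± 1.88 CPM in control pools (log2 1.54 ± 0.21, adjusted p = 0.0012). fanci was at 3.74 ± 1.47 CPM in leachate pools and 1.54 ± 0.254 CPM in control pools (log2 1.28 ± 0.28, adjusted p = 0.0119), a call lost without control 1 (0.06). Among the others, and named after their values were seen, were the damage recognition gene xpc (log2 0.88) and rrm2b, the reductase gene known as a p53 target in mammals (log2 0.52). pcna, rrm2 and fanci are also genes of replicating cells, and the proliferation markers above were higher in the same pools. The part of proliferation in the rises of this list was not tested. Without control 1 the number that rose was 3, and the calls of fanci, xpc (0.0745) and rrm2b (0.0599) were among those lost. xpc also lost its call without leachate 1 (0.0565) or leachate 3 (0.0597), and rrm2b without leachate 3 (0.0525).

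Among the other genes of mitochondrial cell death, 3 of 38 rose and 4 fell, where 7.87% of all genes rose and 7.29% fell. cycsb, one of the cytochrome c genes, was at 161 ± 8.52 CPM in leachate pools and 88.3 ± 10.2 CPM in control pools (log2 0.86 ± 0.13, adjusted p = 0.0012). bcl2l13 was at 30 ± 2.68 CPM in leachate pools and 18.3 ± 1.4 CPM in control pools (log2 0.71 ± 0.12, adjusted p = 0.00236), and aifm2 at 20.8 ± 1.14 CPM in leachate pools and 13.6 ± 1.61 CPM in control pools (log2 0.61 ± 0.12, adjusted p = 0.00767). Cytochrome c also serves respiration, and the product of aifm2 protects membrane lipids from oxidation. The genes that fell were bada, the initiator caspase gene casp9 (log2 -0.58 ± 0.13, adjusted p = 0.0133), ei24 (log2 -0.53 ± 0.12, adjusted p = 0.0118) and the survival gene mcl1a (log2 -0.51 ± 0.14, adjusted p = 0.0334). casp9 was at 16.3 ± 1.23 CPM in leachate pools and 24.3 ± 3.51 CPM in control pools. The number that fell was 0 without control 1 or leachate 2, 2 without control 3 or leachate 3, and 9 with both control 2 and leachate 1 left out. The calls of casp9 and ei24 were lost without control 1 (0.0588 and 0.0593) or leachate 2 (0.0617 and 0.0656), and that of mcl1a without control 1 (0.0969), control 3 (0.0969), leachate 2 (0.131) or leachate 3 (0.131). With library totals the counts were 5 higher and 1 lower, and ei24 (0.0657) and mcl1a (0.0805) were among the calls lost.

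In the death receptor list, 1 of 17 rose and 3 fell, where 7.87% of all genes rose and 7.29% fell. The receptor gene tnfrsf1a was at 33.3 ± 1.43 CPM in leachate pools and 17.9 ± 5.1 CPM in control pools (log2 0.89 ± 0.17, adjusted p = 0.00702), a call that held with each pool left out in turn. tnfsf10l, a ligand gene, was at 28.9 ± 1.7 CPM in leachate pools and 39.8 ± 2.14 CPM in control pools (log2 -0.46 ± 0.10, adjusted p = 0.013), and tnfrsf1b at 10.1 ± 0.643 CPM in leachate pools and 13.7 ± 1.11 CPM in control pools (log2 -0.43 ± 0.12, adjusted p = 0.0382). The tnfsf10l call was lost without control 1 (0.0652), leachate 2 (0.0671) or leachate 3 (0.073), and that of tnfrsf1b without each pool other than control 3, with an adjusted p of up to 0.141. Both were also lost under library totals (0.132 for tnfsf10l and 0.215 for tnfrsf1b), where 2 genes rose and 1 fell, and by DESeq2 2 rose and 2 fell. The third that fell, faslg, was below 1 CPM in every pool and is named after its value was seen. The number that fell was 0 without control 1 or leachate 2 and 1 without control 2, leachate 1 or leachate 3, and 2 rose without leachate 1 and 3 when control 2 and leachate 1 were both left out. fas, the receptor gene that is a p53 target in mammals, was at 1.8, 1.05 and 1.18 CPM in leachate 1 to 3, against 0.768, 1.61 and 1.38 CPM in control 1 to 3 and did not pass (adjusted p = 0.85).

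In the list of metabolic and growth targets, 2 of 34 rose and 5 fell, where 7.87% of all genes rose and 7.29% fell. sesn1, a sestrin gene whose product restrains growth signalling, was at 384, 451 and 465 CPM in leachate 1 to 3, against 880, 895 and 766 CPM in control 1 to 3. It was lower in every leachate pool (log2 -0.97 ± 0.15, adjusted p = 0.00175), and its call held with each pool left out in turn. tsc2, which acts on the same growth pathway, was at 44.6 ± 3.01 CPM in leachate pools and 63.4 ± 1.01 CPM in control pools (log2 -0.51 ± 0.10, adjusted p = 0.00785), a call lost without leachate 2 (0.0599) and under library totals (log2 -0.38, 0.0711). The glutaminase genes gls2a (log2 0.66 ± 0.18, adjusted p = 0.0375) and gls2b (log2 -0.47 ± 0.14, adjusted p = 0.0454) moved in opposite directions, and sco2, of cytochrome oxidase assembly, rose (log2 0.83 ± 0.23, adjusted p = 0.036). With 1 pool left out, the sco2 call held in 0 of 6 fits, that of gls2a in 2 of 6 and that of gls2b in 1 of 6. The number that rose was 0 without control 1, control 3, leachate 1 or leachate 3 and 1 without leachate 2, and the number that fell was 2 without control 1 or leachate 3, 3 without control 3, 1 without leachate 2, and 8 with both control 2 and leachate 1 left out. Under library totals 2 rose and 1 fell, with the calls of gls2b (0.208), tsc2 and ulk1b (0.127) lost.

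**Figure D5:**
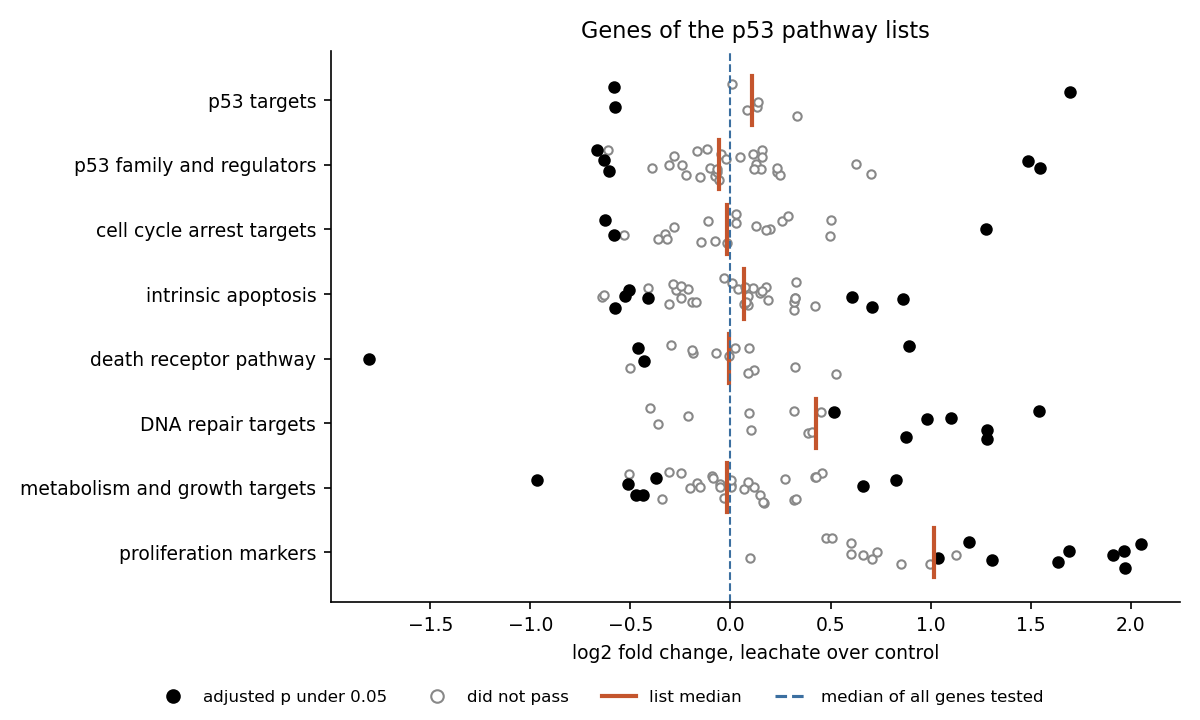
Log2 fold change of leachate over control (horizontal axis) for each tested gene of the p53 targets, the 6 pathway lists and the proliferation markers, filled where the adjusted p was under 0.05, with list medians in orange and the median of all genes as a dashed line. The medians of the DNA repair list (0.43) and of the proliferation markers (1.02) lie above that of all genes, and the other list medians lie between -0.057 and 0.11.

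The pattern of each called gene over the 6 pools was also set beside those of 155 pathway genes with a mean of at least 1 CPM, as the Euclidean distance between centred log2 values. The nearest to cdkn1a were chek1 (distance 0.906), rrm2 (0.985) and tnfrsf1a (1.05). The nearest to bbc3 were ppm1db (0.37), ulk1b (0.405) and ei24 (0.409), and the nearest to gadd45ba were sirt1 (0.215), ulk1b (0.312) and mgmt (0.36). These distances hold the difference between groups as well as the spread within them and are given as a description.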

How the data were processed

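Stranded libraries were made from total RNA (integrity number above 7.0) after removal of ribosomal RNA, per the labels' protocols. The submitters' processing notes name HISAT2, StringTie 2.1.3b, DESeq2 and the build GRCz11, without roles. The counting step and its use of strand are not given in the sources used here. Overlapping, antisense and near-identical genes are therefore uncertain. The authors deposited read counts, TPM and FPKM per gene, per the file headers. The FPKM values were not used in any result. Every deposited count was 1 or more, so a gene lacking reads in any sample was not seen. A symbol on more than 1 row was left out of the lists.

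Counts were tested in R 4.3.3 with edgeR 4.0.16 (TMM, expression filter by group, robust quasi-likelihood F test). The SE is the log2 fold change divided by the square root of F, and 95% intervals use the test's degrees of freedom. Each p-value sets the difference between groups against the spread between these pools, with the spread of each gene estimated partly from all genes. Libraries of the same group were not copies of each other (lowest chi-square per degree of freedom 8.22). The method was tested on simulated counts, in which no pool stood apart and genes with low counts were not changed. That test therefore cannot speak to control 2 and leachate 1, or to changes in genes with low counts. The members and lists were chosen with earlier results of these data known. The naming rule took all members, up to 3 called genes per list and direction with a mean of at least 1 CPM and the largest change, mdm4 and sesn1 as values, and the 3 nearest genes of each called member. Some genes that the rule or the lists name are not reported here. The alternatives were scaling by RLE, by upper quartile or by library totals, the tools DESeq2 1.42.0 and limma-voom (limma 3.58.1), no filter, at least 1 CPM in 3 samples, a fit that is not robust, an adjusted p under 0.01, a replicate block and each sample left out. Leaving out control 2 and leachate 1 together was added after seeing the data. No sequences of these genes were used here.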

Additional observations from a re-analysis of the deposited data

How the results depend on the processing

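The calls of cdkn1a, bbc3 and gadd45ba held under RLE and upper quartile scaling, DESeq2, limma-voom, both other filters, the robust option off and without control 2 and leachate 1 together, and mdm2, ccng1, gadd45aa, baxa and casp8 passed under none of the 17 alternatives. With 1 pool left out, the cdkn1a call held in 3 of 6 fits, that of bbc3 in 2 of 6 and that of gadd45ba in 5 of 6. With an adjusted p under 0.01, 0 of the 8 genes were higher and 0 lower, and over all genes 796 were higher and 692 lower, with 15 of the pathway genes called. With library totals the median gene lay at a log2 fold change of 0.13, 2809 genes were higher and 868 lower (76.4% of calls higher, against 51.9%), and 1 of the 8 was lower. Without control 2 and leachate 1 together, 2648 genes were higher and 2606 lower, against 1871 and 1731. This fit thus called more genes in both directions. With 1 pool left out, the counts ran from 0 to 1 of the 8 higher, 0 to 2 lower, 970 to 2063 of all genes higher, 896 to 1996 lower, and 14 to 36 of the pathway genes called, against 33. Replicate numbers did not pair the pools (correlation of deviations between same-numbered pools -0.046, -0.10 and 0.031). With the replicate block, 1 of the 8 was lower, since bbc3 no longer passed (adjusted p = 0.0793), and 1317 genes were higher and 1248 lower. Signs turned only in genes that did not pass: casp8, whose log2 value ran from -0.011 to 0.052 with 1 pool left out (below 0 without leachate 1, leachate 3 or control 1), baxa, from -0.047 (without control 2) to 0.17 with 1 pool left out and at -0.096 without control 2 and leachate 1 together, and mdm4, at 0.060 with library totals. The cause of these shifts was not tested. cdkn1a rested on 74 to 675 reads per pool, the lowest depth behind a called gene of the 8.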
